A study of Mus musculus with 43 samples.

Results

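The interleukins and their receptors were taken as every gene of the deposited mouse lung count table whose symbol begins with Il followed directly by a digit. This gave 82 genes among 21938, of which 53 had enough reads to be tested and 29 did not. They were set in classes of the IL1 family (20 genes), type 1 (6), type 2 (11), type 17 (16), the IL6 family (6), the IL10 family (8), the gamma chain cytokines (10) and others (5). The rule also takes in genes named after interleukins that are neither ligand nor receptor, such as Il4i1, an amino acid oxidase. The study set nintedanib against its vehicle in a bleomycin mouse model of idiopathic pulmonary fibrosis and sequenced polyA RNA of the inferior lung lobe. Mice labelled CTRL Vehicle (control mice, n = 10) were compared with bleomycin mice labelled BLEO-IPF Nintedanib Vehicle (vehicle mice, n = 16) and BLEO-IPF Nintedanib (nintedanib mice, n = 17). Bleomycin damages DNA and leaves rodent lungs scarred, and nintedanib, an approved antifibrotic drug, inhibits the VEGF, FGF and PDGF receptor kinases. Strain, sex, age, dose, route and day are not in the labels. Nor is the vehicle given to control mice, so its effect and that of bleomycin cannot be told apart. Nothing in the labels beyond separate samples says that the libraries of a group came from separate mice, so the p-values measure only how far these samples spread, which may be technical.

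Interleukins are secreted signals between immune, epithelial and stromal cells. IL1 family ligands such as IL-33 and IL-18 are held in cells, act as alarm signals after injury, and are restrained by decoys and antagonists. Type 1, type 2 and type 17 cytokines are named after the T helper responses they drive, against intracellular microbes, against parasites and in allergy, and at mucosal barriers. IL-6 and IL-11 signal through the shared receptor chain encoded by Il6st and are studied in lung fibrosis.

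Promoters are shown for the IL6 family ligands that rose in vehicle mice (Il6, Il11) and for the paired chains of IL-12 that moved in opposite directions (Il12a, Il12b). Each is the 250 bases before the RefSeq gene start on GRCm38.p6, read on the strand of the gene. The windows are chr5:30012864-30013113 (plus strand), chr7:4782858-4783107 (minus strand), chr3:68690394-68690643 (plus strand) and chr11:44399813-44400062 (plus strand). Capitals mark matches, on either strand, to the AP-1 motif TGANTCA, the C/EBP motif TTGCNNAA, the kB motif (GGG, then any 5 bases, then CC) or the STAT motif TTCNNNGAA.
Il6 promoter: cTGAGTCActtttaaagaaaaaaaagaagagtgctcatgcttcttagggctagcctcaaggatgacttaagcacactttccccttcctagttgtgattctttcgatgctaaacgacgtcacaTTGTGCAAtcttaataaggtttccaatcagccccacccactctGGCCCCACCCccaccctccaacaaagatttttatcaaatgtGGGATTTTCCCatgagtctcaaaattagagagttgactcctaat
Il11 promoter: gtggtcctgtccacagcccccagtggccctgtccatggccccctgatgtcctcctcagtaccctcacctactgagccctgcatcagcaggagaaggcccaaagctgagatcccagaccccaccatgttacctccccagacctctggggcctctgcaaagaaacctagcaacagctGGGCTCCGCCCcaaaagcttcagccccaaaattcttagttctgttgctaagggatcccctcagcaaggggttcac
Il12a promoter: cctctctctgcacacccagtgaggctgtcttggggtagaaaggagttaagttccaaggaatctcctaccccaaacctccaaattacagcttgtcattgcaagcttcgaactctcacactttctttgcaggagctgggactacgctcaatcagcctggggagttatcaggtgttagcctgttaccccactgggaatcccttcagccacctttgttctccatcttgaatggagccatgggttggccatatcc
Il12b promoter: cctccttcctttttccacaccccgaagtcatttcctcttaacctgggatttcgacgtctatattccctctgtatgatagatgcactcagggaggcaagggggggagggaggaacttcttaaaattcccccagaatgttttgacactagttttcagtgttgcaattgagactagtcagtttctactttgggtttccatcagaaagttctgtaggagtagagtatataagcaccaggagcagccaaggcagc
The Il6 window held, in the order printed, an AP-1 match, a C/EBP match and kB matches at 2 places, where the last place held 2 overlapping matches. The Il11 window held overlapping kB matches at 1 place, and the windows of Il12a and Il12b held none of these letters. Of 32851 mouse promoters of this length, 6.7% held the AP-1 motif, 9.6% the C/EBP motif, 45.8% the kB motif and 7.0% the STAT motif. Among the 65 interleukin genes with a promoter in the table, 12 (18.5%) held AP-1, 12 (18.5%) C/EBP, 27 (41.5%) kB and 6 (9.2%) STAT. A match is a run of letters and was not tested as a site.

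Library totals ran from 13138281 to 19111457 counts, of which 23874 to 37517 fell on the 82 genes. Levels are given as log2 CPM, the logarithm of the reads of a gene relative to its library's TMM-scaled total after a prior count of 2 was added, and differences are log2 fold changes. A gene was called when edgeR's quasi-likelihood test gave an adjusted p under 0.05 (Benjamini-Hochberg over 14836 genes). The 3 comparisons share groups, and are given side by side. Markers of other cell types also differed between the groups, and their part in the results below was not tested. All 6 macrophage markers rose in vehicle mice (summed level 349 to 460 CPM in control, 493 to 1480 in vehicle and 429 to 1330 in nintedanib mice). All 5 B cell markers fell (191 to 336, 54.6 to 300 and 23.9 to 252 CPM), as did 5 of 9 tested T and NK cell markers (40.1 to 76.4, 22.6 to 114 and 15.5 to 71.5 CPM), 6 of 6 tested mast cell and basophil markers, 5 of 5 endothelial and 6 of 6 airway markers. Of 6 tested neutrophil markers 2 fell and 1 rose (60.9 to 168, 23.9 to 118 and 60.7 to 663 CPM). No marker of these lists was at 0 in a whole group. Fat transcripts differed too: at least 1 CPM of Adipoq, an adipocyte gene, was present in 8 of 10 control, 0 of 16 vehicle and 5 of 17 nintedanib libraries. In whole lobes, fewer cells of a type and less RNA per cell cannot be told apart.

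Vehicle mouse 4 was the highest of its group in 18 of the 53 tested genes, with a fibroblast marker sum of 4470 CPM against a group median of 930, and the lowest alveolar type 2 (13800 CPM), alveolar type 1 (1750) and endothelial (1190) marker sums. Vehicle mouse 10 had the lowest macrophage marker sum of its group (493 CPM) and the lowest Il1rn, Il18, Il6 and Il11.

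The interleukin genes differed in both directions between vehicle and control mice. Of the 53 tested genes 24 rose and 11 fell in vehicle mice against control mice, which is 66.0% called beside 57.9% of all tested genes (29.5% higher and 28.3% lower). The IL1 family held 9 of the rises, with 9 of its 14 tested genes up and 1 down, and the largest rises elsewhere were in single ligands (Il23a, Il12b, Il11 and Il6). The 11 falls were in receptors (Il5ra, Il6ra, Il17rd, Il2rb, Il15ra, Il11ra1 and Il18rap), the ligand genes Il12a, Il15 and Il16, and the IL-22 decoy Il22ra2. The called share by class was 71.4% in the IL1 family, 33.3% in type 1, 60% in type 2, 55.6% in type 17, 80% in the IL6 family, 100% in the IL10 family and 62.5% in the gamma chain class. In the wider lists given below it was 61.5% (IL1), 55.6% (type 1), 83.3% (type 2), 54.5% (type 17), 83.3% (IL6) and 42.9% (gamma chain). Shares near 57.9% do not set a class apart, and the classes are small. The median log2 fold change was 0.23 over the tested interleukin genes and -0.01 over all tested genes. In 3 genes (Il1r1, Il11 and Il34) the ranges of vehicle and control mice did not overlap, against 5.54% of all tested genes.

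**Figure D1:**
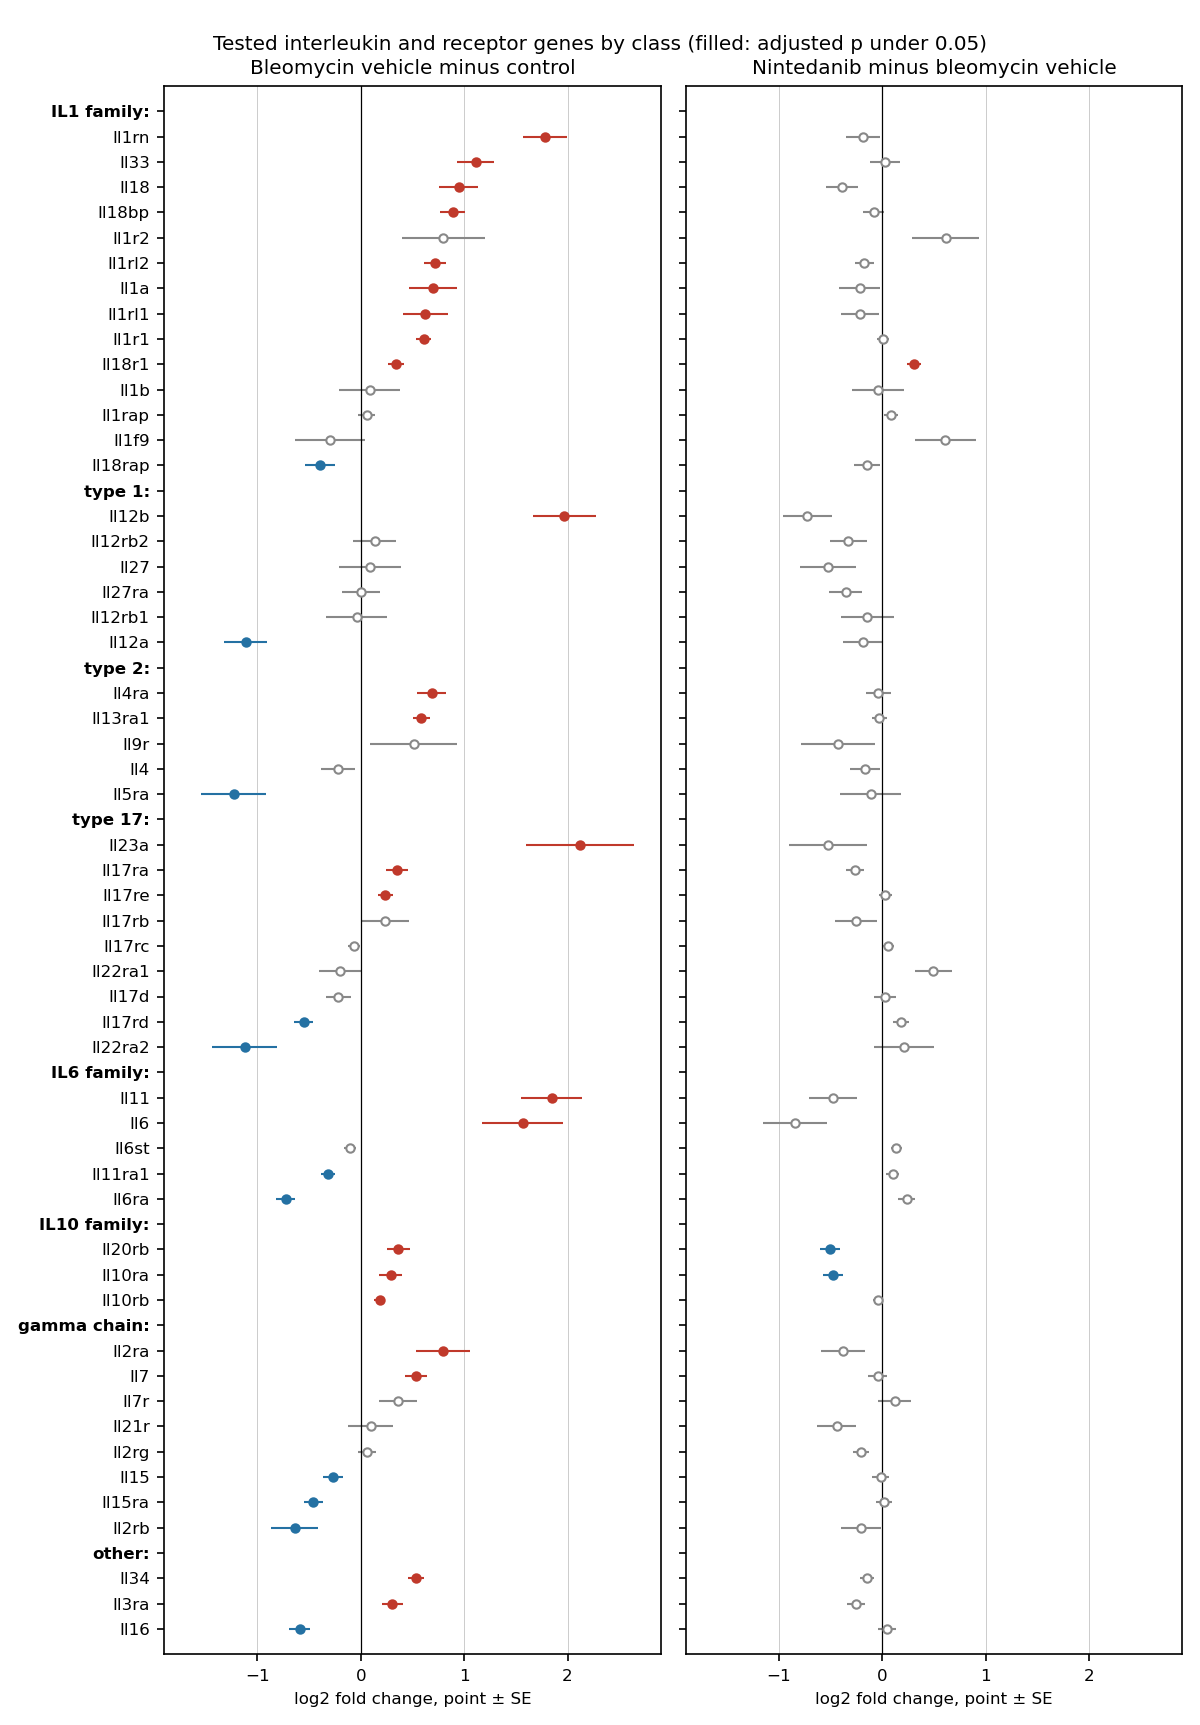
Log2 fold change (horizontal axis, point ± SE) of the 53 tested genes, by class, for vehicle against control mice (left, n = 16 and 10) and for nintedanib against vehicle mice (right, n = 17 and 16). Filled points were called, red when higher and blue when lower: 24 and 11 genes on the left, 1 and 2 on the right.

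Among the IL1 family ligands, Il33, an alarm signal stored in the nucleus of epithelial and stromal cells, had the highest level per kilobase of exon of any tested interleukin gene in the bleomycin groups (27.4 CPM per kilobase in control, 59.2 in vehicle and 60.3 in nintedanib mice). Its log2 CPM was 5.98 to 6.58 (median 6.34) in control, 6.08 to 8.13 (7.45) in vehicle and 6.70 to 8.59 (7.29) in nintedanib mice. Of the 16 vehicle mice 15 lay above the control median, and mouse 4 was the lowest. The rise was 1.11 ± 0.18 (SE, adjusted p = 1.2e-06) in vehicle mice and 1.14 ± 0.18 (adjusted p = 8.2e-07) in nintedanib mice against control, and nintedanib and control mice did not overlap. Il18, a ligand released by inflammasome cleavage, rose by 0.95 ± 0.19 (adjusted p = 4.0e-05) from a median of 3.18 in control mice to 4.25 in vehicle mice. Its median in nintedanib mice was 3.87, a difference of -0.39 from vehicle mice that did not pass (adjusted p = 0.11; 0.030 without vehicle mouse 10). Il1a, a membrane-held agonist of the IL-1 receptor, rose by 0.70 ± 0.23 (adjusted p = 0.010).

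Il1b, the secreted agonist of the same receptor, did not pass the test. Its levels were 2.85 to 4.87 (median 3.45) in control, 2.39 to 5.22 (3.56) in vehicle and 2.81 to 5.38 (3.72) in nintedanib mice, and the groups overlapped over nearly their whole ranges. The difference between vehicle and control mice was 0.08 with a 95% interval of -0.51 to 0.68 (adjusted p = 0.82). Il1f9, which encodes IL-36 gamma, had a median of 1.81 in control, 0.98 in vehicle and 1.77 in nintedanib mice. Neither difference passed over all mice (-0.30 and 0.61, adjusted p = 0.46 and 0.20), but without vehicle mouse 10, the highest of its group at 3.89, both did, with -0.80 (adjusted p = 0.0080) and 1.08 (adjusted p = 0.0034).

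The antagonist Il1rn and the binding protein Il18bp rose as well. Il1rn, which encodes the receptor antagonist that blocks IL-1, went from 2.29 to 2.97 (median 2.55) in control mice to 2.68 to 5.28 (4.21) in vehicle mice and 3.05 to 5.14 (4.17) in nintedanib mice. All 16 vehicle mice lay above the control median, and only mouse 10 lay within the control range. This was a 3.44-fold rise in vehicle mice (log2 1.78 ± 0.21, adjusted p = 2.4e-09) and a 3.02-fold rise in nintedanib mice (log2 1.60 ± 0.21, adjusted p = 2.6e-08), the latter with no overlap with control mice. Set per kilobase within each mouse, the level of Il1rn was below that of Il1b in all but 1 vehicle mouse, with a median difference of -2.55 log2 units in control, -1.09 in vehicle and -1.14 in nintedanib mice. Il18bp, the soluble binder of IL-18, rose by 0.89 ± 0.12 (adjusted p = 9.9e-08). The level of Il18bp relative to Il18 had medians of -2.13, -2.20 and -1.99 log2 units in the 3 groups. Il1r2, the decoy receptor for IL-1, had medians of -0.18, 0.54 and 0.88 and wide spread, with -1.77 to 2.28 in vehicle mice. It did not pass in vehicle against control mice (0.80 ± 0.40, adjusted p = 0.086) and rose in nintedanib against control mice (1.41 ± 0.40, adjusted p = 0.0029). Nintedanib mouse 15 was highest at 3.61, and this mouse also had the highest neutrophil marker sum, 663 CPM against a group median of 100. Without it the rise was 0.97 (adjusted p = 0.010), the difference from vehicle mice went from 0.61 to 0.17, and vehicle against control mice passed with an unchanged difference (0.80, adjusted p = 0.032). That comparison also passed without control mouse 8 or vehicle mouse 12, and in the 33 libraries of the largest of 3 number series in the library names (0.85, adjusted p = 0.032).

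Of the receptors of the IL1 family, 6 lie next to each other on the plus strand of chromosome 1 on GRCm38, from Il1r2 (chr1:40074079-40125231) through Il1r1 (chr1:40225080-40317257), Il1rl2 (chr1:40324610-40367562), Il1rl1 (chr1:40429570-40465415) and Il18r1 (chr1:40465552-40500854) to Il18rap (chr1:40515362-40551705). In vehicle against control mice 4 of them rose, 1 fell and Il1r2 did not pass. Il1r1, the signalling receptor for IL-1, was 5.46 to 5.66 (median 5.55) in control, 5.72 to 6.46 (6.17) in vehicle and 5.92 to 6.55 (6.15) in nintedanib mice. Neither bleomycin group overlapped with control mice, and the rise was 0.61 ± 0.07 in vehicle mice (adjusted p = 1.8e-09) and 0.62 ± 0.07 in nintedanib mice (adjusted p = 1.3e-09). Il1rl2, the IL-36 receptor, rose by 0.72 ± 0.11 (adjusted p = 5.3e-07), Il1rl1, the IL-33 receptor ST2, by 0.62 ± 0.22 (adjusted p = 0.014) and Il18r1 by 0.34 ± 0.08 (adjusted p = 0.00029). The last gene of the row, Il18rap, the accessory chain of the IL-18 receptor, fell by 0.39 on the log2 scale (adjusted p = 0.020), a call lost in the largest name series alone (-0.29, adjusted p = 0.099). Il1rap, the accessory chain shared by most receptors of the family, lies elsewhere, on chromosome 16, and its difference was 0.06 with a 95% interval of -0.10 to 0.21.

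**Figure D2:**
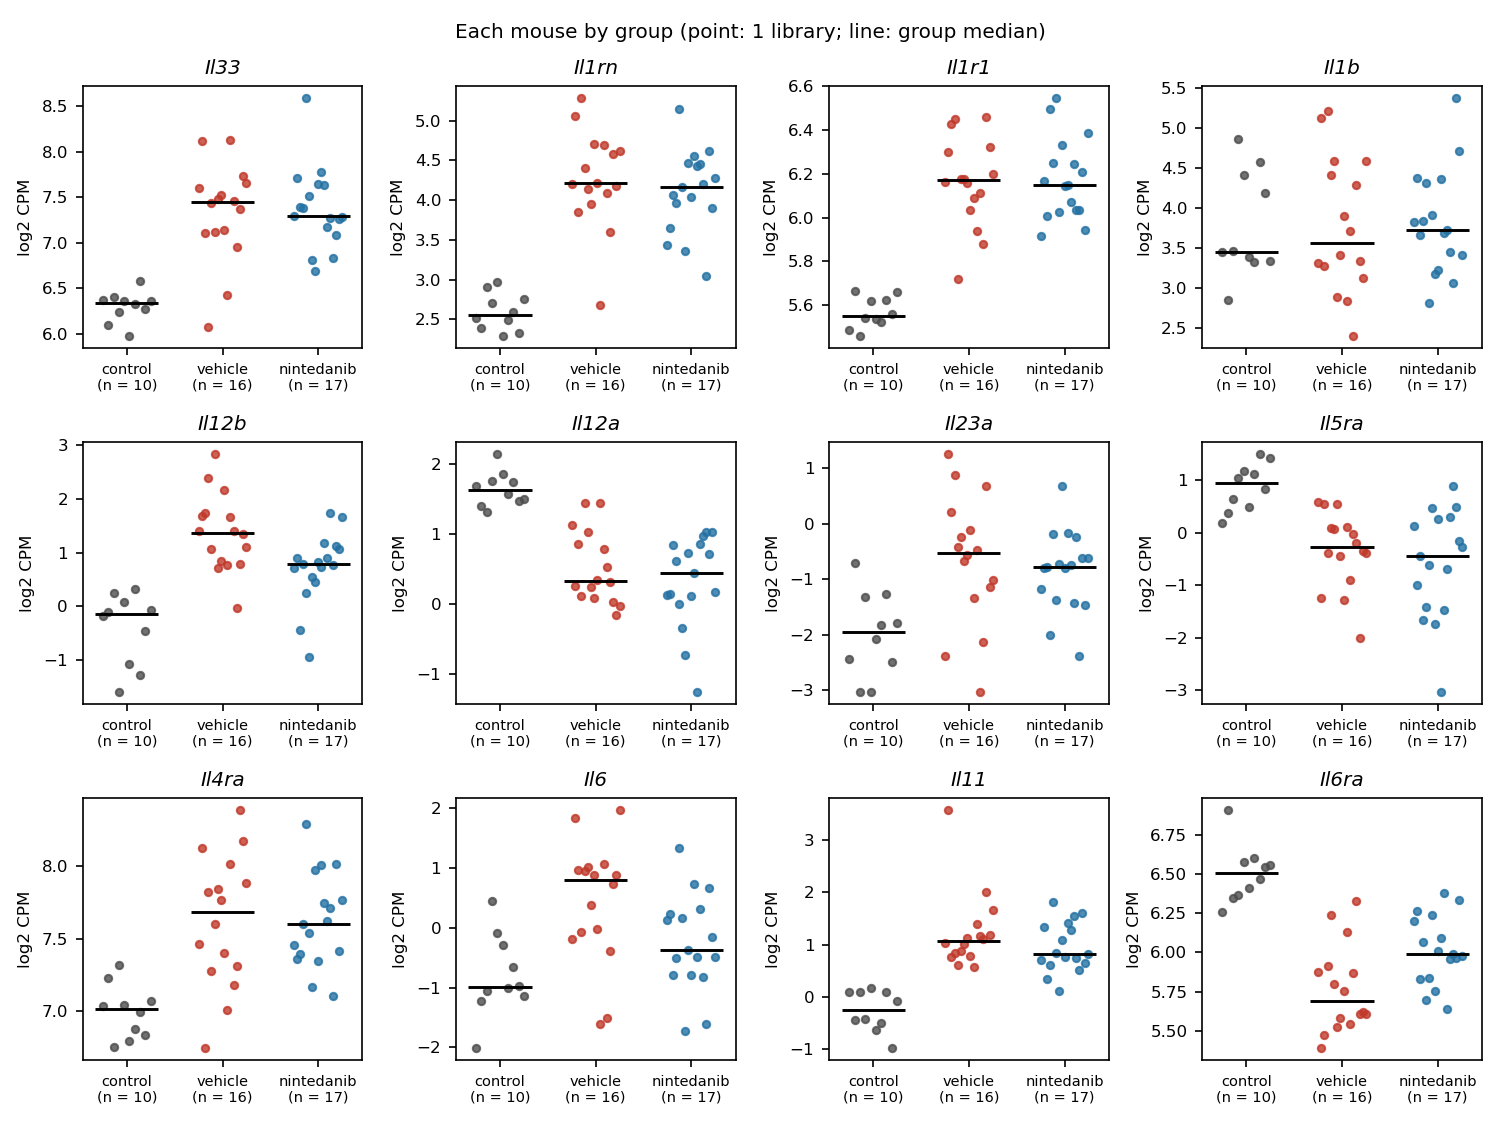
Log2 CPM (vertical axis) of 12 interleukin and receptor genes in each mouse; points are libraries of 10 control, 16 vehicle and 17 nintedanib mice and lines are group medians. Il1r1 and Il11 of the vehicle mice lie above all control mice, Il12a and Il6ra lie lower in both bleomycin groups, and Il1b overlaps throughout.

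Of 13 other tested genes of IL1 signalling (adaptors, kinases and inflammasome parts) 7 rose and 1 fell in vehicle against control mice, with a median of 0.15. The inflammasome sensor Nlrp3 rose by 0.50 ± 0.15 (adjusted p = 0.0047), the kinase Irak4 by 0.49 ± 0.07 (adjusted p = 1.0e-07) and the inflammasome adaptor Pycard by 0.49 ± 0.13 (adjusted p = 0.0016).

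In the type 1 class 1 of 6 tested genes rose and 1 fell, and these 2 encode the chains of IL-12. Il12b, the chain shared with IL-23, was -1.60 to 0.32 (median -0.15) in control mice and -0.03 to 2.84 (1.37) in vehicle mice, a 3.91-fold rise (log2 1.97 ± 0.30, adjusted p = 6.7e-07). Il12a, the chain found in IL-12 and IL-35, was 1.32 to 2.14 (1.63) in control mice and -0.16 to 1.45 (0.33) in vehicle mice, a fall of 1.11 on the log2 scale (SE 0.21, adjusted p = 2.0e-05). All 16 vehicle mice lay above the control median of Il12b and below that of Il12a. Per kilobase of exon, Il12b was below Il12a in all 10 control mice (median difference -2.11 log2 units) and above it in 13 of 16 vehicle mice (0.66) and 10 of 17 nintedanib mice (0.09). Il12a fell by 1.30 on the log2 scale in nintedanib against control mice (adjusted p = 1.6e-06), with no overlap, and Il12b rose by 1.24 ± 0.30 (adjusted p = 0.00061).

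**Figure D3:**
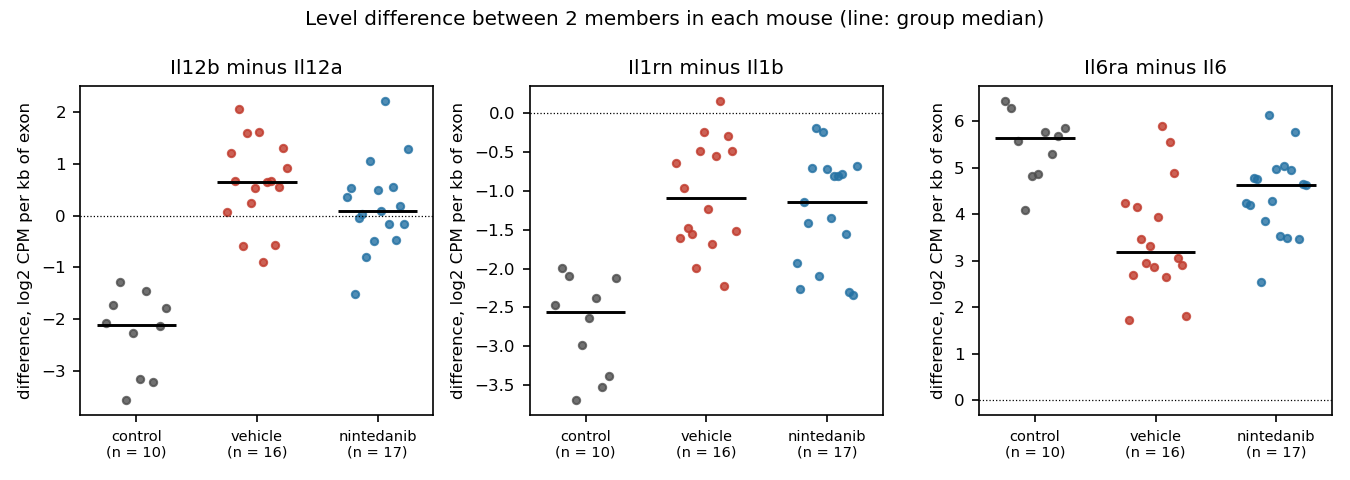
Difference in level (vertical axis, log2 CPM per kilobase of exon) between 2 genes within each mouse, for 10 control, 16 vehicle and 17 nintedanib mice; lines are group medians. For Il12b minus Il12a all control mice lie below 0 (dotted line) and 13 vehicle mice lie above it.

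The other type 1 members did not pass in vehicle against control mice: Il27, a ligand related to IL-12, had a difference of 0.09, and its receptor Il27ra 0.00. The IL-12 receptor chains Il12rb1 and Il12rb2 had -0.04 and 0.14, with 95% intervals of -0.63 to 0.56 and -0.28 to 0.55. The exons of Il12rb2 overlap those of Serbp1 on the opposite strand over 40% of their length, so its reads are uncertain. In the wider type 1 list 3 of 9 tested genes rose and 2 fell (median 0.01). The interferon-induced chemokines Cxcl9 and Cxcl10 rose by 2.62 ± 0.69 (adjusted p = 0.0012) and 1.54 ± 0.35 (adjusted p = 0.00020). Gzmb, a protease of cytotoxic cells, fell by 1.31 on the log2 scale (adjusted p = 9.8e-06).

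Of the 5 type 2 ligands 1 had enough reads to be tested, and of the 5 receptors 4 had, while the decoy Il13ra2 had not. Il13 had 7, 23 and 11 counts in all in the control, vehicle and nintedanib groups, in 5 of 10, 11 of 16 and 9 of 17 libraries. Il5, the eosinophil growth factor, had 31, 22 and 37 counts, in 9, 10 and 13 libraries. Il4, the only type 2 ligand tested, had medians of 0.82, 0.72 and 0.51, overlapping ranges and a difference of -0.22 (adjusted p = 0.25) between vehicle and control mice. It fell by 0.39 on the log2 scale in nintedanib against control mice (adjusted p = 0.041), a call lost when any 1 of 7 libraries was left out (nintedanib mice 1, 3, 9, 10, 11 and 15 and control mouse 10), with changes of -0.38 to -0.35 (adjusted p = 0.051 to 0.078), and in the largest name series alone (-0.31, adjusted p = 0.097).

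Il4ra, the receptor chain shared by IL-4 and IL-13, was 6.75 to 7.32 (median 7.01) in control, 6.74 to 8.39 (7.69) in vehicle and 7.11 to 8.29 (7.60) in nintedanib mice. It rose by 0.69 ± 0.14 in vehicle mice (adjusted p = 6.8e-05) and by 0.65 ± 0.14 in nintedanib mice (adjusted p = 0.00015). Il13ra1, its partner for IL-13, rose by 0.59 ± 0.08 (adjusted p = 8.3e-08) and by 0.56 ± 0.08 (adjusted p = 2.1e-07), and all mice of both bleomycin groups lay above its control median. Il13ra2, the decoy receptor for IL-13, had no read in the 10 control libraries, 13 counts in 7 of 16 vehicle libraries and 23 counts in 9 of 17 nintedanib libraries. Against a floor of 3 counts over the control group, that is at least 2.63-fold higher in vehicle mice and at least 4.47-fold higher in nintedanib mice. These bounds take the counts of the bleomycin groups as exact. Without the filter on low counts Il13ra2 passed in both (adjusted p = 0.018 and 0.0033, edgeR), but DESeq2 called it in nintedanib against control mice only.

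Il5ra, the IL-5 receptor of eosinophils and some B cells, moved the other way. It was 0.17 to 1.5 (median 0.94) in control, -2.00 to 0.58 (-0.28) in vehicle and -3.03 to 0.88 (-0.45) in nintedanib mice, with falls of 1.23 (SE 0.32, adjusted p = 0.0010) and 1.34 (SE 0.31, adjusted p = 0.00041) on the log2 scale. All mice of both bleomycin groups lay below the control median. Of the 2 tested eosinophil markers Siglecf, which alveolar macrophages also express, rose by 0.86 (adjusted p = 0.0062) and Ccr3 had -0.70 (adjusted p = 0.25), and the B cell markers fell as given above. Il9r, the IL-9 receptor, spread widely in vehicle mice (0.08 to 4.55) and did not pass (0.51 ± 0.42, adjusted p = 0.31). Among other genes of type 2 responses 7 of 12 tested rose and 3 fell in vehicle mice, with a median of 0.92. The falls were in Ccl24 (-1.76, adjusted p = 0.0024), Gata3 (-0.89, adjusted p = 1.5e-05) and Tslp (-0.46, adjusted p = 0.022). Arg1, an arginine-degrading enzyme of macrophages, rose by 3.18 ± 0.56 (adjusted p = 6.4e-06), Retnla by 2.93 ± 0.40 (adjusted p = 6.3e-08) and Chil3 by 1.94 ± 0.32 (adjusted p = 1.8e-06).

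In the type 17 class 3 of 9 tested genes rose and 2 fell. Il23a, the chain specific to IL-23, was -3.03 to -0.70 (median -1.94) in control, -3.03 to 1.26 (-0.52) in vehicle and -2.39 to 0.68 (-0.79) in nintedanib mice. It rose 4.34-fold in vehicle mice (log2 2.12 ± 0.52, adjusted p = 0.00065), although the groups overlapped, 3 vehicle mice lay below the control median and the lowest had no read. Its level stayed below that of Il12b, its partner chain, in all 16 vehicle mice, by a median of 2.29 log2 units per kilobase of exon. Il17a, the name-giving cytokine, had no read in control or nintedanib libraries and 8 counts in 3 of 16 vehicle libraries. Il17b had 0, 3 and 3 counts and Il22 had 1, 3 and 0. Il17d, a ligand made outside T cells, was the only IL-17 tested, with a difference of -0.22 (95% interval -0.47 to 0.03, adjusted p = 0.12).

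The IL-17 receptor chains had differences between -0.55 and 0.35 in vehicle against control mice. Il17ra, the chain common to the family, went from a median of 6.13 in control to 6.46 in vehicle and 6.11 in nintedanib mice, and rose by 0.35 ± 0.11 in vehicle against control mice (adjusted p = 0.0043). Il17re, the receptor for IL-17C, rose by 0.24 ± 0.07 (adjusted p = 0.0062), a call lost in the largest name series alone (0.17, adjusted p = 0.083). It lies beside Il17rc on chromosome 6, and Il17rc had a difference of -0.07 (95% interval -0.19 to 0.05), which passed without vehicle mouse 10 (-0.13, adjusted p = 0.031). Il17rd fell by 0.55 on the log2 scale (SE 0.09, adjusted p = 1.3e-06). Il22ra2, a soluble decoy for IL-22, fell by 1.12 on the log2 scale (SE 0.31, adjusted p = 0.0023), from a median of 0.34 to -0.77, with 15 of 16 vehicle mice below the control median. In the wider type 17 list 3 of 11 tested genes rose and 3 fell (median 0.08). The falls were in Ahr (-0.37, adjusted p = 3.4e-05), Traf3ip2 (-0.30, adjusted p = 3.4e-05) and Nfkbiz (-0.24, adjusted p = 0.012). Lcn2, an iron-binding antimicrobial protein, rose by 2.99 ± 0.23 (adjusted p = 3.5e-14), and the RNase gene Zc3h12a by 0.56 ± 0.09 (adjusted p = 3.0e-06).

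In the IL6 family both ligands rose and 2 of 3 tested receptor genes fell. Il11 was -0.97 to 0.17 (median -0.25) in control, 0.58 to 3.57 (1.07) in vehicle and 0.12 to 1.82 (0.82) in nintedanib mice. Vehicle and control mice did not overlap, and the rise was 3.59-fold (log2 1.85 ± 0.30, adjusted p = 1.5e-06). Vehicle mouse 2 was the highest by far, and without it the rise was 1.48 on the log2 scale. Il6 was -2.01 to 0.45 (-0.99) in control, -1.61 to 1.97 (0.80) in vehicle and -1.72 to 1.33 (-0.37) in nintedanib mice. It rose by 1.57 ± 0.39 in vehicle against control mice (adjusted p = 0.00073), with 14 of 16 mice above the control median, and did not pass in nintedanib against control mice (0.72 ± 0.39, adjusted p = 0.12).

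Il6ra, the chain that binds IL-6, was 6.26 to 6.91 (median 6.51) in control, 5.39 to 6.33 (5.69) in vehicle and 5.64 to 6.38 (5.99) in nintedanib mice, and all bleomycin mice lay below the control median. It fell by 0.72 (SE 0.09, adjusted p = 1.2e-08) in vehicle mice and by 0.49 (SE 0.09, adjusted p = 2.0e-05) in nintedanib mice on the log2 scale. Per kilobase, Il6ra exceeded Il6 in every mouse, by a median of 5.63 log2 units in control, 3.18 in vehicle and 4.64 in nintedanib mice. Il11ra1, the IL-11 receptor, fell by 0.32 on the log2 scale (adjusted p = 0.00024); its near-identical copy Il11ra2 had no read in any library, and reads of the copies could have been lost or assigned to 1 of them. Il6st, the shared signalling chain and the most abundant interleukin receptor gene per kilobase in all 3 groups, had a difference of -0.10 (95% interval -0.22 to 0.01, adjusted p = 0.13), and passed when any 1 of 9 libraries was left out (-0.16 to -0.13, adjusted p = 0.021 to 0.049). Of 12 other genes of this pathway 7 rose and 3 fell (median 0.63). The falls were in Cntfr (-0.70, adjusted p = 1.6e-06), Lifr (-0.65, adjusted p = 3.7e-06) and Jak1 (-0.16, adjusted p = 0.0037). The related ligands Osm and Lif rose by 2.03 ± 0.38 (adjusted p = 1.7e-05) and 1.70 ± 0.19 (adjusted p = 1.1e-09).

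Of the genes set in the IL10 family only receptors could be tested, and all 3 rose in vehicle mice. The IL-22 genes were set in type 17 instead, where Il22ra2 fell (-1.12) and Il22ra1 did not pass (-0.20, adjusted p = 0.41). Il20rb, a chain of the receptors for IL-19, IL-20 and IL-24, rose by 0.36 ± 0.11 (adjusted p = 0.0057), and Il10rb, a chain shared by several receptors of the family, by 0.18 ± 0.05 (adjusted p = 0.0024). Il10ra, the ligand-binding chain for IL-10, rose by 0.29 ± 0.11 (adjusted p = 0.024). This last call was lost when any 1 of 9 libraries was left out (vehicle mice 3, 4, 6 and 8 and control mice 3, 6, 7, 8 and 9), with changes of 0.17 to 0.26 (adjusted p = 0.054 to 0.11) and the lowest without vehicle mouse 4. It was also lost with library totals in place of TMM factors (0.25, adjusted p = 0.074). Il10 itself, which restrains inflammation, had 14, 61 and 39 counts in the 3 groups, in 6 of 10, 12 of 16 and 13 of 17 libraries, and did not pass without the filter on low counts (adjusted p = 0.11 in vehicle against control mice).

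Gamma chain cytokines and receptors, which support lymphocytes, moved in both directions, with 2 of 8 tested genes up and 3 down. Il7, a survival factor for lymphocytes, had medians of 1.76, 2.28 and 2.23 in control, vehicle and nintedanib mice, with all mice of both bleomycin groups above the control median. It rose by 0.54 ± 0.11 (adjusted p = 5.4e-05) in vehicle mice. Il2ra, the high-affinity IL-2 receptor chain of regulatory and activated T cells, rose by 0.80 ± 0.26 (adjusted p = 0.0078), and by 0.56 (adjusted p = 0.031) without vehicle mouse 4, the highest at 3.09. Il2rb, the IL-2 and IL-15 receptor chain of NK and T cells, fell by 0.64 (SE 0.22, adjusted p = 0.013), a call lost in the largest name series alone (-0.47, adjusted p = 0.093). Il15ra fell by 0.46 (SE 0.09, adjusted p = 4.3e-05) and its ligand Il15 by 0.27 (SE 0.10, adjusted p = 0.014) on the log2 scale. Of the 9 tested T and NK cell markers, Ncr1, Klrb1c and Nkg7 (-1.74, -1.35 and -0.90) and Cd8a and Cd8b1 (-0.60 and -0.58) fell, while Cd3e, Cd3d, Cd3g and Cd4 did not pass (0.08, -0.10, -0.03 and 0.58). The common chain Il2rg had a difference of 0.06 (95% interval -0.12 to 0.24), and shares 30.5% of its exon length with Gm20489. Il7r did not pass in vehicle mice (0.36, adjusted p = 0.092) and rose in nintedanib against control mice (0.48 ± 0.18, adjusted p = 0.026), a call lost without control mouse 2, 3, 6 or 9 (0.40 to 0.45, adjusted p = 0.052 to 0.076) and with library totals (0.42, adjusted p = 0.064). In the largest name series alone the calls were the other way round, with 0.58 (adjusted p = 0.022) in vehicle and 0.46 (adjusted p = 0.057) in nintedanib mice against control. In the wider gamma chain list 1 of 7 tested genes rose and 2 fell: the kinase Jak3 rose by 0.48 ± 0.09 (adjusted p = 1.2e-05), and Stat5b and Bcl2 fell by 0.40 and 0.35 on the log2 scale (adjusted p = 1.3e-09 and 0.0051).

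Of the remaining genes, Il34, a second ligand of the CSF1 receptor that maintains macrophages, was 3.52 to 4.09 (median 3.83) in control and 4.17 to 4.90 (4.31) in vehicle mice. The groups did not overlap and the rise was 0.53 ± 0.08 (adjusted p = 2.1e-07). Il3ra, the IL-3 receptor, rose by 0.31 ± 0.10 (adjusted p = 0.011). Il16, a chemoattractant for CD4 cells, fell by 0.59 on the log2 scale (SE 0.10, adjusted p = 4.5e-06), but shares 17.4% of its exon length with genes of the opposite strand, mainly Stard5.

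Without the 13 libraries with Adipoq, 2 control, 16 vehicle and 12 nintedanib libraries were left. Of the 35 calls between vehicle and control mice 13 then remained, 8 higher and 5 lower, and no called gene changed sign. These were 22% of the 59 interleukin genes then tested, below the 23.9% of all tested genes. Il1rn (1.69, adjusted p = 0.0030), Il33 (1.19, adjusted p = 0.0088), Il1r1 (0.54, adjusted p = 0.0088), Il12a (-1.27, adjusted p = 0.017), Il6ra (-0.96, adjusted p = 0.00023) and Il13ra1 (0.94, adjusted p = 6.0e-05) were among the 13. Il11 (1.72, adjusted p = 0.052), Il12b (1.67, adjusted p = 0.051), Il6 (1.42, adjusted p = 0.16), Il23a (1.53, adjusted p = 0.27) and Il5ra (-1.11, adjusted p = 0.15) kept their direction and did not pass. The other 17 that did not pass were Il4ra, Il22ra2, Il17ra, Il17re, Il18, Il1a, Il1rl1, Il18rap, Il11ra1, Il7, Il15, Il2ra, Il2rb, Il10ra, Il10rb, Il20rb and Il3ra.

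Few interleukin genes were called between nintedanib and vehicle mice, and a gene that was not called was not shown to be unchanged. Of the 53 tested genes 1 rose and 2 fell against vehicle mice, which is 5.66% called beside 7.31% of all tested genes (3.21% higher and 4.10% lower). The median was -0.15 over the interleukin genes and 0.00 over all tested genes, and 35 of 53 differences were negative. In 46 of the 53 genes the 95% interval of the difference lay within 1 log2 unit of 0. That is a wide bound, as only 9 of the 35 calls between vehicle and control mice reached 1 log2 unit. In none of the 53 genes did the groups fail to overlap (0% of all tested genes). Leaving out 1 library at a time gave 1 to 3 genes higher and 2 to 7 lower.

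The 2 genes that fell are receptor chains of the IL10 family. Il20rb was 2.15 to 3.07 (median 2.53) in vehicle, 1.5 to 2.54 (2.11) in nintedanib and 1.48 to 2.43 (2.26) in control mice. Of the 17 nintedanib mice 16 lay below the vehicle median, and the groups overlapped. It fell by 0.51 on the log2 scale (SE 0.10, adjusted p = 0.0012), and nintedanib and control mice differed by -0.15 (95% interval -0.37 to 0.08). Il10ra was 5.15 to 6.40 (median 5.37) in vehicle, 4.51 to 5.51 (4.94) in nintedanib and 4.98 to 5.38 (5.18) in control mice, again with 16 of 17 nintedanib mice below the vehicle median. It fell by 0.48 on the log2 scale (SE 0.09, adjusted p = 0.0018), and by 0.39 without vehicle mouse 4 (adjusted p = 0.0025). Nintedanib and control mice differed by -0.19 (95% interval -0.41 to 0.03), which passed without vehicle mouse 4 (-0.23, adjusted p = 0.028). That mouse is in neither group and enters only through the scaling and spread that all 43 libraries share. Without it other genes shifted alike in this comparison (Il33 from 1.14 to 1.10, Il6st from 0.03 to -0.003). Il10rb, the partner chain of Il10ra, had a difference of -0.05 (95% interval -0.13 to 0.04). Beside these falls, 4 of 8 dendritic cell markers fell in nintedanib against vehicle mice (summed level 105 to 263 CPM in vehicle and 83.8 to 172 in nintedanib mice), among them Fscn1 (-1.01, adjusted p = 0.0029) and Flt3 (-0.57, adjusted p = 0.024), while 0 of 6 macrophage and 0 of 9 T and NK cell markers were called. Of the same 8 dendritic cell markers 4 had risen in vehicle against control mice (Fscn1 1.87, Xcr1 1.19, Batf3 1.01 and Flt3 0.96). Clec9a (-0.53) and Zbtb46 (-0.42) had fallen, and Ccr7 (-0.04) and Cd209a (-0.42) did not pass. The part of these markers in the differences of Il10ra, Il20rb and Il12b was not tested. Of 6 tested mast cell and basophil markers 3 rose in nintedanib against vehicle mice (Tpsb2 2.66, Cma1 1.62 and Mcpt4 1.16). Cpa3 (0.25), Kit (-0.06) and Ms4a2 (-0.81) did not pass. The median summed level was 154 CPM in vehicle and 153 in nintedanib mice. Tpsb2 had a read in only 8 of 16 vehicle and 10 of 17 nintedanib libraries.

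Il18r1, the ligand-binding chain of the IL-18 receptor, rose further under nintedanib. It was 6.38 to 7.25 (median 6.80) in control, 6.78 to 7.48 (7.16) in vehicle and 7.10 to 7.71 (7.51) in nintedanib mice, and 16 of 17 nintedanib mice lay above the vehicle median. The rise over vehicle mice was 0.30 ± 0.07 (adjusted p = 0.0043) and that over control mice 0.64 ± 0.08 (adjusted p = 5.3e-09). Its accessory chain Il18rap, the next gene on chromosome 1, had a difference of -0.15 from vehicle mice (95% interval -0.41 to 0.11). These 3 calls held when any single library was left out, without the libraries with Adipoq, in the largest name series alone and with DESeq2.

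**Figure D4:**
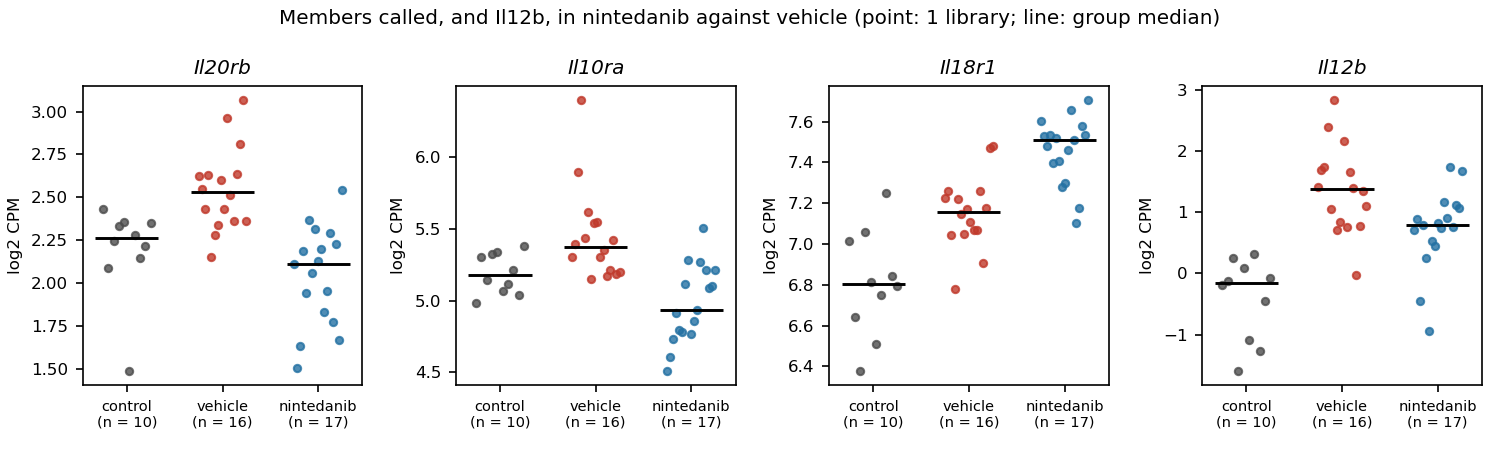
Log2 CPM (vertical axis) of Il20rb, Il10ra, Il18r1 and Il12b in each of 10 control, 16 vehicle and 17 nintedanib mice; lines are group medians. Il20rb and Il10ra lie lower and Il18r1 higher in nintedanib than in vehicle mice, with overlap in each panel.

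The 2 largest differences between nintedanib and vehicle mice, in Il6 and Il12b, did not pass. Il6 had -0.84 ± 0.31 (adjusted p = 0.084), with 16 of 17 nintedanib mice below the vehicle median, and passed without vehicle mouse 10 or 12 or nintedanib mouse 5 (-1.02 to -0.92, adjusted p = 0.033 to 0.044). Il12b had -0.72 ± 0.24 (adjusted p = 0.050, just above the threshold), with medians of 1.37 in vehicle and 0.79 in nintedanib mice and 15 of 17 below the vehicle median. It passed with DESeq2 (-0.73, adjusted p = 0.032), with library totals (-0.75, adjusted p = 0.044), in the largest name series (-1.06, adjusted p = 0.019) and in 13 of 43 fits with 1 library left out. The 6 type 1 genes had negative differences, from -0.72 to -0.15, as had the 5 tested type 2 and 3 tested IL10 family genes, but without vehicle mouse 4 that of Il12rb1 was 0.00. The IL-22 receptor genes, set in type 17, had positive differences that did not pass (Il22ra1 0.50, adjusted p = 0.073, and Il22ra2 0.21, adjusted p = 0.69). Il11 had -0.48 ± 0.23 (adjusted p = 0.20), and -0.11 without vehicle mouse 2. Il6ra (0.24, adjusted p = 0.061), Il17ra (-0.26, adjusted p = 0.063) and Il3ra (-0.25, adjusted p = 0.068) did not pass over all mice and passed without vehicle mouse 10 (adjusted p = 0.034, 0.023 and 0.049).

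For genes that led the differences between vehicle and control mice, no difference between nintedanib and vehicle mice passed, and the intervals set its possible size. Here Il33 had 0.03 (95% interval -0.27 to 0.32), Il1rn -0.19 (-0.52 to 0.15), Il1r1 0.01 (-0.11 to 0.13), Il4ra -0.04 (-0.28 to 0.20), Il13ra1 -0.03 (-0.17 to 0.11) and Il12a -0.18 (-0.58 to 0.21). For Il23a (-0.52, 95% interval -1.28 to 0.24) and Il1r2 (0.61, -0.04 to 1.27) the intervals were wider. In the wider lists no type 1, type 2 or gamma chain gene was called (of 9, 12 and 7). Lif fell by 0.55 on the log2 scale (SE 0.15, adjusted p = 0.024) among 12 IL6 family genes, and the inflammasome genes Aim2 and Gsdmd fell by 0.39 and 0.14 (adjusted p = 0.015 and 0.048) among 13 of the IL1 pathway. S100a8, a neutrophil calcium-binding protein, rose by 0.97 ± 0.28 (adjusted p = 0.027) among 11 of type 17, beside 3 of 6 tested neutrophil markers, S100a8 among them. The summed neutrophil level was 60.9 to 168 CPM (median 113) in control and 23.9 to 118 (60.6) in vehicle mice. In nintedanib mice it was 60.7 to 663 (100), with 663 in mouse 15. Against control mice, S100a9 (-1.01) and Csf3r (-0.96) had fallen and Mmp8 (0.76) had risen in vehicle mice. Only Mmp8 was called in nintedanib against control mice (1.24, adjusted p = 0.00037).

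Nintedanib against control mice gave 18 interleukin genes higher and 12 lower, 56.6% of the 53 beside 53.2% of all tested genes (28.1% higher and 25.1% lower). Of the 35 genes called in vehicle mice 27 were called in the same direction here, with the control mice shared. Groups did not overlap for 4 genes (Il1rn, Il33, Il1r1 and Il12a), against 7.37% of all tested genes. Called only here were Il1r2, Il7r and Il4, and 8 genes were called only in vehicle mice, namely Il6, Il1a, Il1rl1, Il2ra, Il3ra, Il17ra, Il10ra and Il20rb. Whether the 2 bleomycin groups differ in a gene is the comparison given above, not this split, and in the largest name series Il1r2 and Il7r were called in vehicle against control mice. Without the libraries with Adipoq 8 genes were higher and 6 lower, beside 21.6% of all tested genes. Of the 30 calls 12 remained and 2 were added (Il2rg and Il22ra1). The 18 lost were Il1r2, Il18, Il18rap, Il12b, Il4, Il4ra, Il5ra, Il23a, Il17re, Il22ra2, Il11, Il11ra1, Il10rb, Il7, Il7r, Il15, Il2rb and Il34.

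The 29 genes too low to test had at most 19 counts in any library. Of these, 23 had at most 100 counts over all 43 libraries, and Il1f6, Il20, Il9 and Il11ra2 had none. As classed here type 17 had the largest number of them, though not the largest share, with 7 of 16 genes (Il17a, Il17b, Il17c, Il17f, Il22, Il25 and Il23r). That order rests on where Il25 is set, an IL-17 family ligand that drives type 2 responses. Il23r, the IL-23 receptor, had 65, 75 and 128 counts in the control, vehicle and nintedanib groups, with a read in 10 of 10, 15 of 16 and 16 of 17 libraries, and Il17c, an epithelial ligand, had 67, 105 and 92. Type 2 gave 6 of 11 genes, the IL1 family 6 of 20 and the IL10 family 5 of 8, so the untested share was larger in the IL10 family and type 2 than in type 17. Il24, a ligand of receptors with the Il20rb chain, had 15, 39 and 24 counts, and Il19, another, had 1, 5 and 13. Without the filter Il13ra2 alone was called in vehicle against control mice, none in nintedanib against vehicle mice, and Il19, Il13ra2 and Il31ra, part of the IL-31 receptor, in nintedanib against control mice (edgeR). A group total of 0 allows up to 3 counts, so a level below that was not detectable at this depth.

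**Figure D5:**
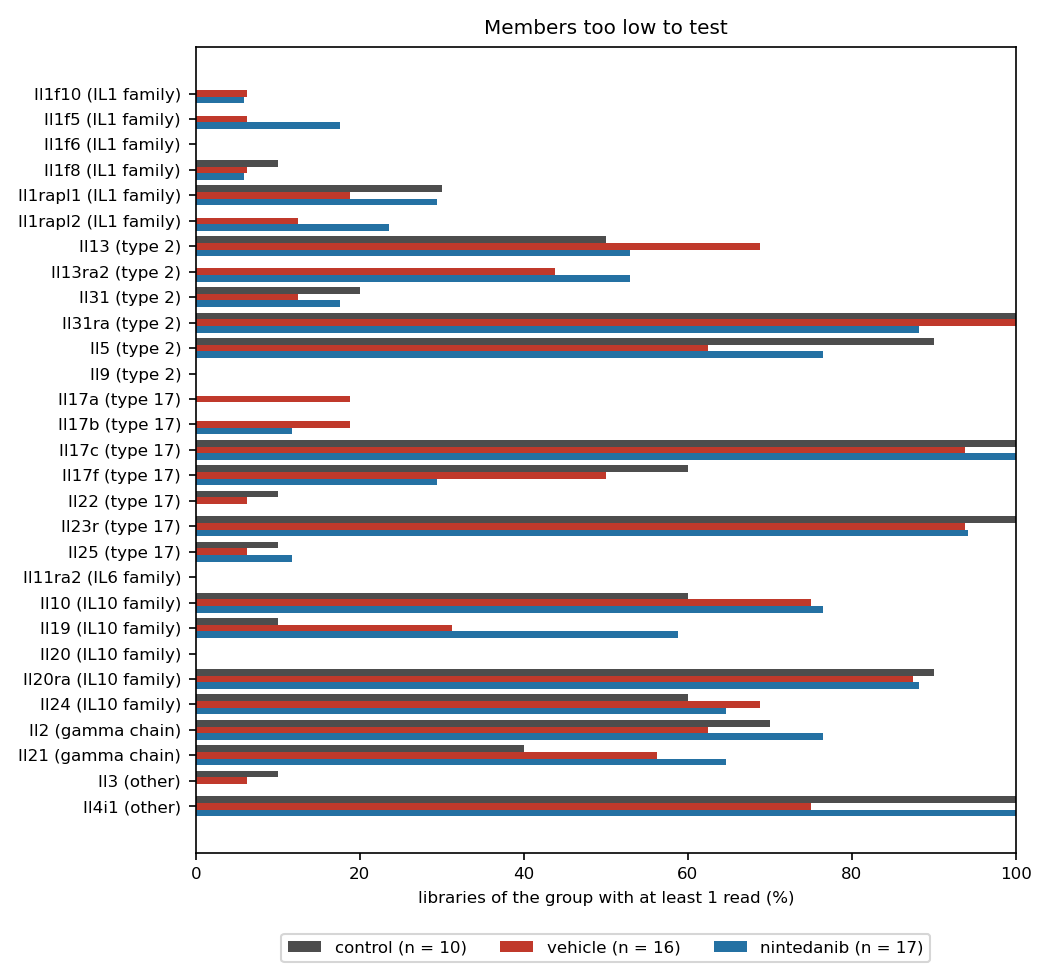
Share of libraries with at least 1 read (horizontal axis, percent) for the 29 untested genes, with class in brackets, in 10 control, 16 vehicle and 17 nintedanib mice. Il13ra2 has no control bar and bars for both bleomycin groups, Il17a has a vehicle bar only, and 4 genes have none.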

How the data were processed

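The values are raw counts of reads for each gene in each library, as the authors deposited them in a single table. STAR 2.7.0f, R 3.6.0 and GRCm38 are listed with no role, per the submitters' processing notes. No source used here gives the counting tool or its strand setting, so reads of overlapping genes (23 of the 82) can be misassigned. Libraries were directional and single-end, per the labels' protocols, and were grouped by their treatment label.

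A low-count filter (edgeR's filterByExpr on the 3 groups, with 10 as minimum count and 15 as minimum total) left 14836 genes with 99.96% of counts. The test was edgeR 4.0.16's quasi-likelihood test (R 4.3.3, TMM, robust, two-sided) over all 43 libraries, adjusted by Benjamini-Hochberg over all tested genes, and it was tested on simulated counts. Coordinates and exon lengths come from GENCODE M21. Promoters were searched as letters in RefSeq windows.

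The genes and lists were chosen with earlier results of these data known. Named genes are those called under nintedanib, up to 5 called per class in vehicle against control mice, up to 3 more per class called only in nintedanib against control mice, a set of 40 genes given in any case, and up to 3 called genes per wider list. Il1f9, Il1rap, Il27, Il9r, Il17rc, the marker genes and the untested genes outside that set were picked after their values were seen. Alternatives were RLE factors, library totals alone, DESeq2 1.42.0, no filter, the name series as covariate, the largest series alone, 2 groups only, libraries without Adipoq, and each library left out. Library names fall into 3 number series whose meaning the labels do not give. Depth limits precision for genes of few counts; the floor of 3 counts covers counting error only.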

Additional observations from a re-analysis of the deposited data

Results flagged for a closer look

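In control mice 7 of 53 tested interleukin genes had 1 mouse far from the other 9, by the gap between that mouse and its nearest neighbour relative to the whole range (chance gives this in about 1 in 20 groups). The share over all tested genes was not counted and the genes share the same mice, so the count does not set interleukin genes apart. The highest mouse stood apart for Il18bp (3.2 log2 CPM, next 2.80), Il6ra (6.91, next 6.60), Il6st (9.43, next 9.13) and Il17rc (5.36, next 5.17). The lowest stood apart for Il20rb (1.48, next 2.09), Il22ra2 (-0.84, next 0.10) and Il17rb (-0.72, next 0.38). For Il20rb, Il6ra, Il18bp and Il22ra2 the calls of vehicle against control mice held when any 1 library was left out.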

How the results depend on the processing

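No called gene changed sign under any alternative. RLE factors, the name series as a covariate, no filter and a fit of only the 2 groups compared left the counts of called genes within 1.5 times. Without the libraries with Adipoq, 8 genes were higher and 5 lower in vehicle against control mice, and 8 higher and 6 lower in nintedanib against control mice, with only 2 control libraries left. For nintedanib against vehicle mice DESeq2 called 3 higher and 4 lower (adding Il6ra, Il22ra1, Il12b and Il17ra), library totals alone 4 lower (adding Il12b and Il17ra) and the largest name series 5 lower (adding Il21r, Il12b and Il27ra). Leaving out each library in turn gave 23 to 25 higher and 11 to 14 lower in vehicle against control mice, 1 to 3 higher and 2 to 7 lower in nintedanib against vehicle mice, and 16 to 18 higher and 11 to 13 lower in nintedanib against control mice. The counts for nintedanib against vehicle mice moved by over 1.5 times without vehicle mouse 10 (3 higher, 7 lower), vehicle mouse 13 (3 and 4), vehicle mouse 5 or nintedanib mouse 5, 8 or 12 (2 and 4 each), vehicle mouse 12 (1 and 4) or vehicle mouse 6 (2 and 2); the cause was not tested. Il10rb lost its call in nintedanib against control mice (0.14) in 16 of 43 such fits (0.09 to 0.12, adjusted p = 0.057 to 0.16). Among these were the fits without vehicle mouse 3, 4, 6, 8 or 10, each with 0.10, although vehicle mice are in neither group. All libraries share 1 fit, so a library outside a comparison can move it through scaling and spread. Scaling moved the median of all genes by under 0.1 log2 units. In nintedanib against control mice that median was -0.01 with TMM factors and -0.07 with library totals. Il10rb also lost its call there with library totals (0.07, adjusted p = 0.30). No paired analysis was possible because the labels give no replicate numbers shared between groups.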
